A study of Mus musculus with 12 samples.

Results

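The 9 genes described here carry retinoids into cells, bind them and make retinoic acid. They are Stra6, Rbp4, Rbp7, Crabp1, Crabp2, Aldh1a1, Aldh1a2, Aldh1a3 and Dhrs3. They were taken by symbol from a fixed list and matched to the gene identifiers of the deposited tables through GENCODE mouse release 21. The tables hold 55536 genes, of which 19213 passed the filter on low counts and were tested. The filter asks for 2 libraries at or above 0.269 CPM (counts per M counts) before scaling. Of the 9 genes, 6 met that level in all 12 libraries, Rbp4 in 7, Rbp7 in 5 and Crabp1 in 3. Rbp4 and Rbp7 would have passed on the groups other than C1 and L1 alone, whereas Crabp1 passed only through L1. RNA was sequenced from segments 1, 2 and 3 of the epididymis of wild-type (WT) mice, segment 1 lying nearest the testis. In the ligated groups (L1, L2 and L3) the efferent ducts had been tied off before they enter the caput, and the control groups (C1, C2 and C3) were not ligated. Each of the 6 groups had 2 libraries, and every library pooled 2 mice. Sequencing ran in batches 3017 and 3097, which hold 1 library per group each. The sources used here do not give strain, age or the time after ligation. Nor do they say whether the pools of a group held different mice, so p-values measure only the spread between these libraries, which may be technical.

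Retinol, the transport form of vitamin A, circulates bound to RBP4 and enters many cells through the membrane receptor STRA6. Inside the cell it is bound by small carrier proteins and oxidised first to retinaldehyde and then, irreversibly, to retinoic acid by retinaldehyde dehydrogenases of the ALDH1A family. Retinoic acid binds nuclear receptors that control transcription, and the epididymal epithelium is known to need retinoids to keep its differentiated state.

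Promoter sequences are shown for the gene with the largest rise after ligation that rested on more than a few reads (Stra6) and for the pair of retinaldehyde dehydrogenase genes that fell in segment 1 (Aldh1a1 and Aldh1a2). Of the 9 genes, 7 had an entry in the RefSeq promoter table on build GRCm38.p6, with 14 start sites in all; Crabp2 and Aldh1a3 did not. Each line holds 240 bases, 5′ to 3′, of the strand that reads as the transcript does, and starts 250 bases before an annotated start site. The windows are chr9:58128838-58129077 for Stra6, chr19:20601718-20601957 for Aldh1a1 and chr9:71215539-71215778 for Aldh1a2, all on the plus strand. The promoter table held 4 start sites for Stra6, 2 for Aldh1a1 and 1 for Aldh1a2. The window shown is, for Stra6, the first along the chromosome among those of the promoter table and, for Aldh1a1, the one that holds the octamer. Both lie inside the GENCODE genes, which begin at chr9:58063788 (Stra6) and chr19:20492715 (Aldh1a1). No result here tells which start is used. Capitals mark the octamer ATGCAAAT.
Stra6: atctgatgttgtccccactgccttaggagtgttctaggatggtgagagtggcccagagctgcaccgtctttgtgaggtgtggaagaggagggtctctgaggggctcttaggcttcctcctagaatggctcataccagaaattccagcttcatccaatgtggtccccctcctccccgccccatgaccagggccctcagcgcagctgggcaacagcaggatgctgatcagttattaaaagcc
Aldh1a1: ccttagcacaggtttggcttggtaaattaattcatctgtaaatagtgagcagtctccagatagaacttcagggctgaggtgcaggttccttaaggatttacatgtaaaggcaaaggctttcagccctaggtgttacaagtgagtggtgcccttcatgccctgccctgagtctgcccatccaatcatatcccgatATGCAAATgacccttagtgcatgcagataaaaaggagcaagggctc
Aldh1a2: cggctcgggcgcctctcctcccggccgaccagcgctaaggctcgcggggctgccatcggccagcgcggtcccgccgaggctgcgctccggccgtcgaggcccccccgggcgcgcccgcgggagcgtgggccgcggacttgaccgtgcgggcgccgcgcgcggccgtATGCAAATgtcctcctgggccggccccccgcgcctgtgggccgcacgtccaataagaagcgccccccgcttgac
The octamer begins 56 bases before the start site in Aldh1a1 and 84 bases before it in Aldh1a2, and was picked for display after these sequences had been read. Searched on both strands of the 250 bases before a start site (ATGCAAAT and ATTTGCAT), it was in 1.6% of all 32851 windows and in 2 of the 14 windows of these genes. The hexamer AGGTCA, which retinoic acid receptors bind in pairs (AGGTCA or TGACCT), was in 14% of all windows and in 0 of the 14. The TATA box TATAAA (or TTTATA) was in 12.4% of all windows and in 1 of the 14, a window of Rbp4. These are matches of letters only.

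The libraries held 30.5 M to 42.3 M counts. Epididymal genes (Gpx5, Adam7, Lcn5, Lcn8 and Crisp1) summed to 43900 to 86100 CPM (from here on per M counts of the scaled library) in the 12 libraries. Sperm and spermatid transcripts (Prm1, Prm2, Tnp1 and Akap4) summed to 5.96 to 114 CPM in the 6 control libraries and to 0.0253 to 0.373 CPM in the 6 ligated ones. The 2 libraries of C2 differed more over all genes than those of any other group (chi-square per degree of freedom 115.5 against 22.6 to 80.1), and results resting on C2 are given with and without its libraries where these change them. Lcn8 stood at 210 and 3320 CPM in the C2 libraries, between means of 14000 CPM in C1 and 98.4 in C3. Pdgfra stood at 53.5 and 219 CPM, between 519 in C1 and 26.2 in C3. Crisp1, at 878 CPM in C1 and 14.7 in C3, stood at 9.22 and 12 CPM in C2. The source of the spread in C2 was not tested.

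In segment 1, 4 of the 6 genes that met the filter level in every library changed after ligation: Stra6 and Aldh1a3 rose, and Aldh1a1 and Aldh1a2 fell. Of the 3 scarce genes, Rbp4 rose and Rbp7 fell, on few counts, and Crabp1 was not called. Among all genes tested, 48.7% changed in segment 1 (24.4% higher and 24.4% lower in ligated tissue), so the 6 called of 9 are to be read against a high background. The median log2 fold change of the 9 genes was 1.17, against 0.03 over all genes. That middle value is the one of Crabp1, which was not called and was tested only through L1. No shift of the 9 genes as a set is read from it. With libraries scaled by their totals alone, the median over all genes was 0.24 and all 9 genes passed the test, 6 higher (Crabp1, Crabp2 and Dhrs3 added) and 3 lower. The share of all genes called with that scaling is not given here, so this count is not read as a trait of the 9 genes.

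In segment 2, 2 of the 9 genes changed: Stra6 rose and Aldh1a1 fell. The background there was 9.86% (2.87% higher, 7% lower). In segment 3 only Aldh1a1 passed the test, and it fell, against a background of 1.72% (0.312% higher, 1.41% lower). A gene is said to have changed where edgeR's quasi-likelihood test, with p-values adjusted over all 19213 genes by the Benjamini-Hochberg method, gave an adjusted p under 0.05.

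**Figure D1:**
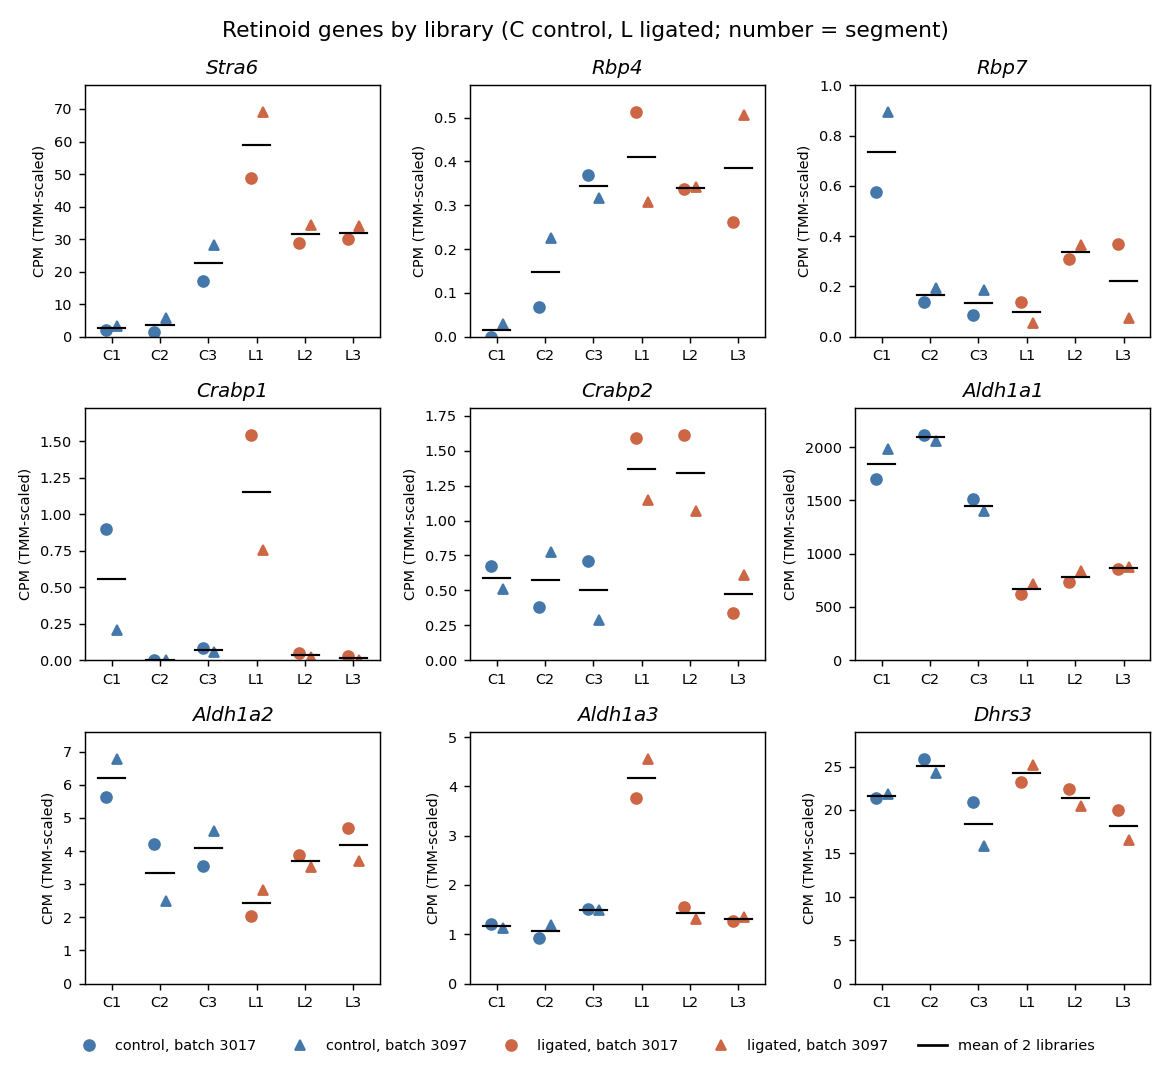
Level of each of the 9 retinoid genes in TMM-scaled CPM (y axis, from 0, its own range for each gene) in the 6 groups (x axis); points are single libraries, their shape the sequencing batch, and bars the mean of 2 libraries. Stra6 lies at 1.31 to 5.63 CPM in C1 and C2 and at 48.7 to 69.1 CPM in L1, while Aldh1a1 lies at 1400 to 2110 CPM in the control libraries and at 623 to 877 CPM in the ligated ones.

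Stra6 (ENSMUSG00000032327, chr9:58063788-58153996, plus strand) encodes the retinol transporter of the cell membrane, one of whose promoter windows is the first of the printed sequences. Its level, in TMM-scaled CPM, was 1.98 and 3.28 in the libraries of C1 and 48.7 and 69.1 in those of L1. Every ligated library of segment 1 lay far above every control library. The log2 fold change was 4.51 ± 0.42 (SE), a 22.7-fold rise (adjusted p = 0.00023), and it ranged from 4.42 to 4.71 over 11 other settings, past the test in each.
In segment 2 Stra6 stood at 1.31 and 5.63 CPM in control libraries and at 28.7 and 34.4 CPM in ligated ones. The groups did not overlap, but the control libraries differed from each other more than 4-fold. The log2 fold change was 3.29 ± 0.40 (adjusted p = 0.0068), and was 2.71 without the C2 library of batch 3017 and 4.37 without that of batch 3097. Without the L2 library of batch 3017 the adjusted p was 0.066, and in a fit of the 4 libraries compared alone it was 0.16.
In segment 3 the values were 17.2 and 28.2 CPM in controls and 29.9 and 33.9 CPM after ligation. The highest control library lay just under the lowest ligated one, and the log2 fold change of 0.54 ± 0.35 did not pass the test (adjusted p = 0.49). Ordered by mean level, Stra6 went from C1 (2.63 ± 0.919 CPM, SD, n = 2) through C2 (3.47 ± 3.06), C3 (22.7 ± 7.73), L2 (31.5 ± 4.07) and L3 (31.9 ± 2.84) to L1 (58.9 ± 14.5). The libraries of C1 and C2 overlapped, as did those of L2 and L3, and no other neighbours in that order did.

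Rbp4 (ENSMUSG00000024990, chr19:38116629-38125281, minus strand) encodes the plasma carrier of retinol and was close to the limit of detection throughout. Its counts were 0 and 1 in C1 and 22 and 11 in L1, or 0.411 ± 0.145 CPM (SD, n = 2) in L1. Summed over both libraries the ratio of L1 to C1 was 30.9, with a 95% exact interval of 5.17 to 1255 that covers counting error only. The quasi-likelihood test gave an adjusted p of 0.0037, and 0.0022 to 0.037 over 10 other settings; its log2 fold change of 4.63 ± 0.98 moved to 3.75 and 6.89 when either C1 library was left out and to 3.95 without the L1 library of batch 3017.
Rbp4 did not pass the test in segment 2 (2 and 7 counts in C2, 13 and 14 in L2, adjusted p = 0.3) or in segment 3 (13 and 12 counts in C3, 10 and 20 in L3, adjusted p = 0.93). C1 was therefore the group with almost no Rbp4 counts. The libraries of C3, L1, L2 and L3 lay together at 0.262 to 0.513 CPM.

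Rbp7 (ENSMUSG00000028996, chr4:149449687-149454978, minus strand) encodes a cellular retinol-binding protein known from adipose tissue and its endothelium. Its counts were 23 and 30 in C1 and 6 and 2 in L1, which is 0.735 ± 0.225 and 0.098 ± 0.0594 CPM (SD, n = 2). Both ligated libraries lay under both control libraries. The log2 fold change fell by 2.82 ± 0.74 (adjusted p = 0.011); without the C1 library of batch 3097 it was -2.35 (adjusted p = 0.076), without the L1 library of batch 3097 it was -2.29 (adjusted p = 0.087), and without the L1 library of batch 3017 it was -3.67 (adjusted p = 0.037).
Outside C1, no library held more than 15 counts of Rbp7, and the gene did not pass the test in segment 2 (adjusted p = 0.42) or segment 3 (adjusted p = 0.72). In the order of levels C1 stood alone at the top, and each of the other 5 groups overlapped its neighbour.

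Crabp1 (ENSMUSG00000032291, chr9:54764748-54773110, plus strand) and Crabp2 (ENSMUSG00000004885, chr3:87948666-87953376, plus strand) encode the cellular retinoic acid-binding proteins; CRABP2 is known to hand retinoic acid to its nuclear receptor. Crabp1 counts were 36 and 7 in C1 and 66 and 27 in L1. These pairs overlapped, and the log2 fold change of 1.17 ± 0.45 did not pass the test (adjusted p = 0.058). In the other 8 libraries Crabp1 had 0 to 3 counts, at or under a floor of 3 counts (0.07 to 0.103 CPM), so that no fold is given for segments 2 and 3.
Crabp2 stood at 0.676 and 0.507 CPM in C1 and at 1.59 and 1.15 CPM in L1. The control values of segment 2 were 0.379 and 0.773 CPM and the ligated ones 1.61 and 1.07 CPM. Ligated libraries were above control libraries in both segments, but neither difference passed the test: the log2 fold change was 1.2 ± 0.49 in segment 1 (adjusted p = 0.068) and 1.17 ± 0.51 in segment 2 (adjusted p = 0.17). In a fit of the 4 libraries of segment 1 alone the adjusted p was 0.022, and in segment 2 without the C2 library of batch 3097 the log2 fold change was 2.01 (adjusted p = 0.043). In segment 3 the groups overlapped, at 0.71 and 0.29 CPM in controls and 0.341 and 0.607 CPM after ligation.

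Aldh1a1 (ENSMUSG00000053279, chr19:20492715-20643465, plus strand), a retinaldehyde dehydrogenase, was by far the most abundant of the 9 genes. Per length of exon it reached 422 ± 7.76 RPKM (reads per kilobase of exon and M reads, SD, n = 2) in C2, while the highest group mean was 10.1 RPKM for Stra6, 8.57 for Dhrs3 and 2.74 or less for the other 6 genes. With the longest transcript in place of all exons these became 884, 19.1 and 10.7 RPKM, with the same order. Of the per-length sum of the 3 Aldh1a genes, Aldh1a1 made up 98.5% to 99.7% in every library.
In segment 1 Aldh1a1 stood at 1700 and 1980 CPM in controls and at 623 and 710 CPM after ligation. In segment 2 the values were 2110 and 2060 against 737 and 833 CPM, and in segment 3 they were 1510 and 1400 against 851 and 877 CPM. Every ligated library lay below every control library, whatever the segment.
The log2 fold change fell by 1.46 ± 0.12 in segment 1 (2.76-fold lower, adjusted p = 2.4e-05) and by 1.41 ± 0.12 in segment 2 (2.66-fold lower, adjusted p = 0.00035). The call in segment 1 held under 11 other settings; that in segment 2 was lost in the fit of the 4 libraries compared alone (adjusted p = 0.058). In segment 3 it fell by 0.75 ± 0.12 (1.68-fold lower, adjusted p = 0.012). There the call was lost in a fit of those 4 libraries alone (adjusted p = 0.14), without the C3 library of batch 3017 (-0.62, adjusted p = 0.16) and without the L3 library of batch 3017 (-0.76, adjusted p = 0.17) or of batch 3097 (-0.72, adjusted p = 0.096). From lowest to highest the group means were 667 (L1), 785 (L2), 864 (L3), 1450 (C3), 1840 (C1) and 2090 CPM (C2), and no neighbours in that order overlapped.

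Aldh1a2 (ENSMUSG00000013584, chr9:71215789-71296243, plus strand), the retinaldehyde dehydrogenase that makes most retinoic acid in the embryo, fell in segment 1. Its level was 5.63 and 6.79 CPM in C1 and 2.05 and 2.83 CPM in L1, without overlap. The log2 fold change fell by 1.35 ± 0.29 (2.55-fold lower, adjusted p = 0.0041; 0.00022 to 0.049 over 11 other settings). In segment 2 the values were 4.20 and 2.48 CPM in controls and 3.89 and 3.51 CPM after ligation, and in segment 3 they were 3.55 and 4.61 against 4.69 and 3.69 CPM. Both pairs of groups overlapped, with log2 fold changes of 0.15 ± 0.29 and 0.04 ± 0.29.

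Aldh1a3 (ENSMUSG00000015134, chr7:66390890-66427517, minus strand), the third retinaldehyde dehydrogenase, moved the opposite way in segment 1. It stood at 1.2 and 1.13 CPM in C1 and at 3.76 and 4.56 CPM in L1, a 3.54-fold rise (log2 fold change 1.82 ± 0.24, adjusted p = 0.00027; 1.6e-06 to 0.0048 over 11 other settings). All 10 libraries outside L1 lay at 0.929 to 1.56 CPM. The log2 fold change was 0.44 ± 0.25 in segment 2 (adjusted p = 0.3) and -0.21 ± 0.25 in segment 3 (adjusted p = 0.71). Its share of the per-length Aldh1a sum was 0.0606% to 0.0751% in C1 and 0.636% to 0.677% in L1; with the longest transcript as the length it was 0.039% to 0.0483% and 0.41% to 0.436%. The per-length level of Aldh1a3 in L1 was 0.901 ± 0.124 RPKM beside 1.08 ± 0.242 RPKM for Aldh1a2, whereas in C1 it was 0.253 ± 0.0106 against 2.74 ± 0.362 RPKM. With the longest transcript the order in L1 turned, at 1.21 RPKM for Aldh1a3 and 1.08 for Aldh1a2, so which of the pair was higher there depends on the length used.

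Dhrs3 (ENSMUSG00000066026, chr4:144892827-144928209, plus strand) encodes an enzyme that reduces retinaldehyde back to retinol, and is itself known to respond to retinoic acid. Its levels kept to a narrow range, 15.9 to 25.9 CPM over all 12 libraries. Ligated libraries stood at 23.2 and 25.2 CPM in segment 1 against 21.4 and 21.8 CPM in controls, and the log2 fold changes were 0.17 ± 0.12 (adjusted p = 0.29), -0.23 ± 0.12 (adjusted p = 0.27) and -0.01 ± 0.13 (adjusted p = 0.98) in segments 1, 2 and 3. No change in Dhrs3 was detectable with 2 libraries per group under the standard scaling.

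**Figure D2:**
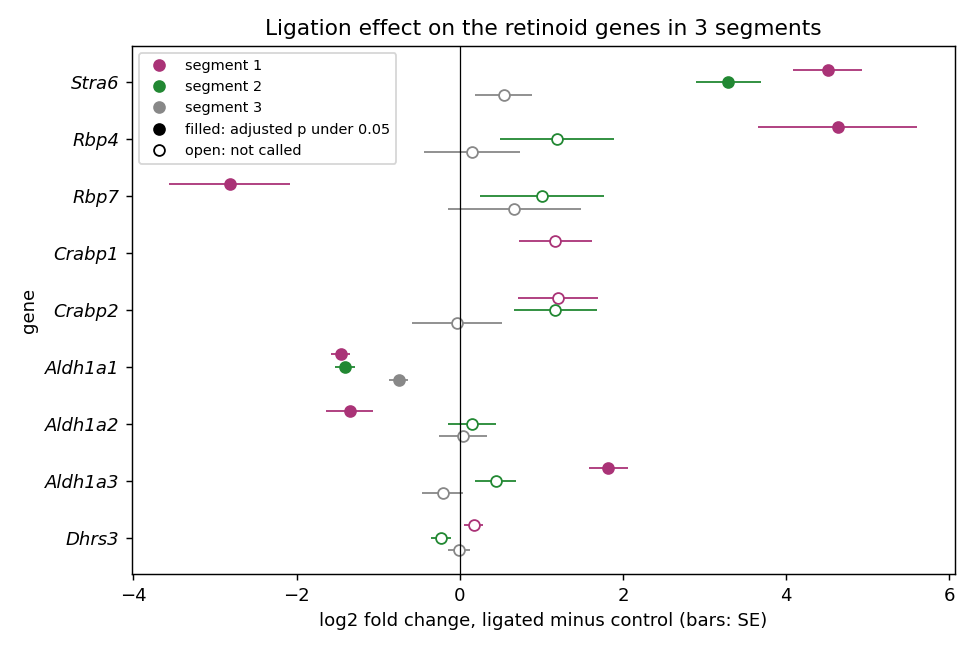
Log2 fold change of ligated against control tissue (x axis, bars are the SE of the fit) for the 9 genes (y axis) in segments 1 (purple), 2 (green) and 3 (grey); filled points passed an adjusted p under 0.05 and Crabp1 is not drawn in segments 2 and 3, where it had too few counts. Stra6 is far to the right in segments 1 and 2 (4.51 and 3.29) and near 0 in segment 3 (0.54), Aldh1a1 is to the left in all 3, and Aldh1a2 and Aldh1a3 leave 0 on opposite sides in segment 1.

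Taken within each batch, where a group has 1 library and no test is possible, the ratios kept their directions for the genes that changed. On the scale of log2(CPM + 0.5), which understates the change of low genes, Stra6 differed between ligated and control tissue by 4.31 and 4.20 in batches 3017 and 3097 in segment 1 and by 4.01 and 2.51 in segment 2. Aldh1a1 differed by -1.44 and -1.48 in segment 1, by -1.52 and -1.30 in segment 2 and by -0.82 and -0.67 in segment 3. In segment 1 the values were 1.02 and 0.61 for Rbp4, -0.75 and -1.33 for Rbp7, -1.26 and -1.13 for Aldh1a2, and 1.32 and 1.63 for Aldh1a3.

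Whether ligation acted differently along the duct was tested as the difference of log2 fold changes between segments. Between segments 1 and 2 the effect differed for 3 of the 9 genes (18.5% of all genes tested): Rbp7 (-3.84 ± 1.07, adjusted p = 0.034), Aldh1a2 (-1.50 ± 0.41, adjusted p = 0.033) and Aldh1a3 (1.39 ± 0.35, adjusted p = 0.023). Rbp7 met the filter level in both libraries of C1 and of L2 and in 1 other. C1 and L2 are also the groups whose height makes its difference negative, so the Rbp7 call here is a description. Its call was lost without any one of the 8 libraries compared, that of Aldh1a3 without any but the C2 library of batch 3017, and that of Aldh1a2 without any but the C2 library of batch 3017 and the L1 library of batch 3097. Over the other settings run, the difference was -4.68 to -3.30 for Rbp7, -2.00 to -1.13 for Aldh1a2 and 1.18 to 1.57 for Aldh1a3. For Stra6 the difference was 1.21 ± 0.55 (adjusted p = 0.18), so its effects in segments 1 and 2 were not shown to differ.
Between segments 1 and 3 the effect differed for 6 of the 9 genes (30.7% of all genes). Stra6 differed by 3.96 ± 0.53 (adjusted p = 0.0024), Aldh1a3 by 2.03 ± 0.34 (adjusted p = 0.0023) and Aldh1a1 by -0.71 ± 0.16 (adjusted p = 0.0096), and these 3 passed under each of the other settings run. Rbp4 (4.49 ± 1.21, adjusted p = 0.02), Rbp7 (-3.49 ± 1.10, adjusted p = 0.038) and Aldh1a2 (-1.39 ± 0.41, adjusted p = 0.029) did not: the count fell to 3 without the C3, L1 or L3 library of batch 3017. The Rbp7 difference was -1.83 without the L3 library of batch 3017 (adjusted p = 0.33) and lost its call without any other of the 8 libraries except the L3 library of batch 3097. The Rbp4 difference was 6.73 without the C1 library of batch 3097 and 3.59 without that of batch 3017, where its call was lost (adjusted p = 0.096). The Aldh1a2 call was also lost without the C1 library of batch 3097 (-1.19, adjusted p = 0.11). Between segments 2 and 3 edgeR called 0 of the 9 genes and 0% of all genes, with 3 genes (Stra6, Aldh1a1 and Crabp1) and 1917 of all genes at an unadjusted p under 0.05. Crabp1 had 0 to 3 counts in each library compared there, so its p-value is not read. DESeq2 called 2 of the 9 and 151 of all genes. The edgeR calls among the 9 changed without the C2 library of batch 3017 or of batch 3097. The share of all genes called in those fits is not given here, so nothing about the 9 genes is read from this.

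Along the unligated duct, Stra6 and Rbp4 were lower in segment 1 than in segment 3, Rbp7 and Crabp1 were higher in segment 1 than in either other segment, and Aldh1a2 was higher in segment 1 than in segment 2. The background was high for both comparisons with C1: between C1 and C2 43.2% of all genes differed, and between C1 and C3 51.2%. Against C2, 3 of the 9 genes were higher in C1. Rbp7 was 4.34-fold higher (adjusted p = 0.038) and Aldh1a2 1.87-fold higher (adjusted p = 0.031), whereas Crabp1, at 0 counts in both C2 libraries, was at least 5.55-fold higher against a floor of 3 counts per library (adjusted p = 0.0014). That bound rests mostly on 1 library: it was 8.73-fold in batch 3017 (36 counts in C1) and 2.16-fold in batch 3097 (7 counts). The count was 1 without the C1 library of batch 3017 or of batch 3097. Rbp7 lost its call without any one of the 4 libraries, and Aldh1a2 did without either C1 library and, at a log2 difference of 0.52, without the C2 library of batch 3097.
Against C3, 5 of the 9 genes differed. Stra6 was 8.63-fold lower in C1 (adjusted p = 0.00092) and kept its call under every other setting run. Rbp4 was also lower in C1, with a ratio of C3 to C1 of 25.1 (95% exact interval 4.11 to 1031, adjusted p = 0.0057). Its log2 difference of -4.34 was -6.60 without the C1 library of batch 3097, and -3.46 without that of batch 3017, where the call was lost (adjusted p = 0.05). Rbp7 was 5.27-fold (adjusted p = 0.019) and Aldh1a1 1.26-fold (adjusted p = 0.034) higher in C1. Crabp1 had 43 counts in C1 and 5 in C3, a ratio of 8.56 (95% exact interval 3.40 to 27.7, adjusted p = 0.0056). The count fell to 2 without the C1 library of batch 3017 and to 3 without that of batch 3097. Rbp7 and Crabp1 also lost their calls without the C3 library of batch 3017 (log2 differences of 1.89 and 2.35), as did Rbp7 without the C1 library of batch 3097 (1.88) and Crabp1 without that of batch 3017 (2.14). The small difference in Aldh1a1 lost its call in 6 of 11 other settings: with library totals alone (adjusted p = 0.084), without the batch term (0.063), in a fit of the compared libraries alone (0.16), and without the C1 library of batch 3017 (0.056) or 3097 (0.23) or the C3 library of batch 3097 (0.2).
Between C2 and C3 only Stra6 differed (1.79% of all genes did), 6.84-fold lower in C2 (adjusted p = 0.036). The fit without the batch term gave an adjusted p of 0.11 and called 0 genes of the 9, and without the low-count filter the adjusted p was 0.063. Without the C3 libraries of batch 3017 or 3097 the adjusted p was 0.098 and 0.2. The log2 difference was -2.77 ± 0.40, and -2.19 and -3.85 without the C2 library of batch 3017 and 3097.

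Along the ligated duct fewer genes differed. Between L1 and L2 2 of the 9 genes did (1.3% of all genes) and between L1 and L3 again 2 (5.8%), Crabp1 and Aldh1a3 each time, both higher in L1. Crabp1 was tested at all only because of its counts in L1, so its calls here are a description. It had 93 counts in L1 against 3 in L2 and 1 in L3, ratios of 31.4 (95% exact interval 10.4 to 155, adjusted p = 0.017) and 91.9 (16.1 to 3670, adjusted p = 0.0073). Aldh1a3 was 2.88-fold higher in L1 than in L2 (adjusted p = 0.021) and 3.19-fold higher than in L3 (adjusted p = 0.0083). Both genes lost their call without the L1 library of batch 3097 in either comparison. Against L2 they also did without the L2 library of batch 3017 or 3097, and against L3 without the L3 library of batch 3017. Without the L3 library of batch 3097 Aldh1a3 alone lost its call. Such fits leave 1 library in a group. Over the other settings run, the log2 difference of Aldh1a3 was 1.34 to 1.72 against L2 and 1.54 to 1.80 against L3. That of Crabp1 was 4.58 to 5.22 against L2 and 5.85 to 7.64 against L3. Without the batch term the call of Crabp1 against L2 was lost as well (adjusted p = 0.07).
Between L2 and L3 edgeR called 0 of the 9 genes and 0% of all genes, with 1 of the 9 (Crabp2) and 1344 of all genes at an unadjusted p under 0.05; DESeq2 called 0 of the 9 and 32 of all genes. Stra6, which differed 8.63-fold between C1 and C3, was 1.81-fold higher in L1 than in L3, a difference that did not pass the test (adjusted p = 0.21).

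Markers of other cell types moved in segment 1 as well. The 5 endothelial markers (Pecam1, Cdh5, Kdr, Plvap and Emcn) all fell, from a summed 79.0 to 80.8 CPM in C1 to 21 to 31.9 CPM in L1, and stood at 9.99 to 15.0 CPM in the other 4 groups. Of the 5 fibroblast markers, Dcn, Lum, Col1a1 and Col3a1 rose and Pdgfra fell, from 511 to 527 CPM in C1 to 25.9 to 38.6 CPM in L1. The fibroblast sum was 596 to 597 CPM in C1 and 177 to 275 CPM in L1, most of it Pdgfra in C1. Ciliated-cell markers of the efferent ducts (Foxj1, Mcidas, Ccdc39 and Dnah5) summed to 15.6 to 16.4 CPM in C1 and 24.3 to 30.8 CPM in L1, where 3 of the 4 rose. By level Dnah5 was lower, at 6.31 to 8.13 CPM in C1 and 3.24 to 5.18 CPM in L1. Adipocyte markers summed to 0.0344 to 0.308 CPM in the 12 libraries, with Adipoq and Lep at 0 in C1, and mesothelial markers to 0.0518 to 0.532 CPM.
Other marker lists moved too. All 4 smooth muscle markers (Acta2, Myh11, Cnn1 and Tagln) rose, from a sum of 242 to 309 CPM in C1 to 396 to 512 CPM in L1. Of 5 markers of clear and narrow cells 3 rose (Foxi1, Atp6v1b1 and Atp6v1g3), with a sum of 158 to 191 CPM in C1 and 274 to 282 CPM in L1. Atp6v0d2 was lower by level, at 125 to 133 CPM in C1 and 97.7 to 108 CPM in L1, and Slc4a9 overlapped between the groups. Among basal cell markers Krt5 and Krt14 rose and Trp63 and Itga6 fell (sum 358 to 366 and 307 to 426 CPM). The T cell markers Cd3g and Cd8a rose (list sum 2.00 to 2.90 and 3.17 to 3.83 CPM). By level Cd3e was lower in L1 (0.952 to 1.49 CPM, against 1.58 to 2.18 in C1) and Cd4 higher (0.35 to 1.18, against 0.149 to 0.175). The blood markers Hba-a1 and Hbb-bs fell (list sum 9.83 to 14.9 and 4.93 to 11.1 CPM), whereas Alas2 was higher by level (0.655 to 0.826 CPM in C1, 1.15 to 1.17 in L1). In each of the macrophage (Cd68, higher), epithelial (Krt19, higher), Leydig cell (Cyp17a1, higher) and Sertoli cell (Sox9, lower) lists 1 gene changed. The other Leydig cell markers had low means in C1 and L1 (Insl3 0.160 and 0.233 CPM, Star 0.579 and 0.553). So did the other Sertoli cell markers (Amh 0.222 and 0.098 CPM, Rhox5 0.0125 and 0.203). Cyp17a1 and Sox9 are therefore not read as signs of those cells.
Rbp7, Aldh1a2 and the endothelial sum were each highest in C1 and lower in L1. By mean, L1 was the lowest group for Rbp7 (0.098 CPM, against 0.338 in L2) and for Aldh1a2 (2.44 against 3.70 CPM). For both genes the L1 libraries overlapped those of the next group up. Neither gene was called between L1 and L2 by edgeR's quasi-likelihood test (adjusted p = 0.38 and 0.41). The endothelial sum was higher in L1 than in L2 (12 to 14.9 CPM). In these bulk samples fewer cells of a type and less RNA per cell cannot be told apart, and the part of these cell types in the results for the 9 genes was not tested.

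**Figure D3:**
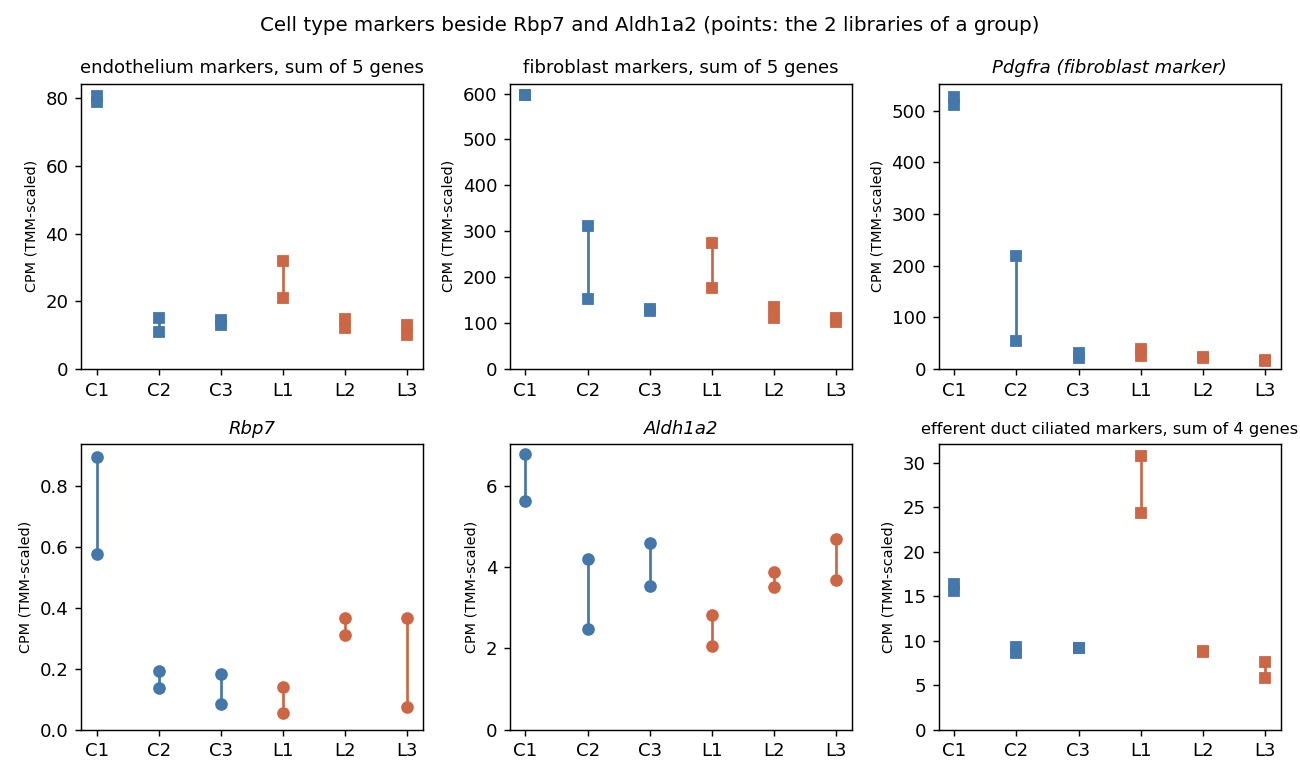
Summed endothelial, fibroblast and efferent duct ciliated cell markers, the fibroblast marker Pdgfra alone, Rbp7 and Aldh1a2, each in TMM-scaled CPM (y axes, from 0) in the 6 groups (x axis); the points joined by a line are the 2 libraries of a group, blue for control and orange for ligated. The endothelial sum falls from 79.0 to 80.8 CPM in C1 to 21 to 31.9 CPM in L1 beside Rbp7 (0.735 to 0.098 CPM) and Aldh1a2 (6.21 to 2.44 CPM), and the ciliated sum is highest in L1.

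The rest of the pathway was followed in lists that hold 52 further genes, 38 of them tested, chosen with earlier results of these data known. In segment 1, 18 of the 38 changed, 12 higher and 6 lower, a share near the background of 48.7%. The median log2 fold change over the 38 was 0.28, against 0.03 over all genes. In segment 2, 3 of the 38 changed (background 9.86%), Rarg higher and Lipe and Hoxb1 lower. In segment 3 edgeR's quasi-likelihood test called 0 of the 38, with 10 at an unadjusted p under 0.05 (3061 of all 19213 genes), and DESeq2 called 0.
In segment 2 the count of pathway genes was higher without the C2 library of batch 3097 and lower without the L2 library of batch 3017 or 3097. The share of all genes called in those fits is not given here, so nothing about the pathway is read from these shifts.

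Among the nuclear receptors 3 of the 5 tested rose in segment 1 and none of the 5 fell, beside 48.7% of all genes called there (24.4% higher); over so few genes nothing particular to the receptors is read from this. Rarg, a retinoic acid receptor, went from 24.5 ± 2.37 to 59.1 ± 1.69 CPM (SD, n = 2; log2 fold change 1.27 ± 0.15, adjusted p = 0.00013). Rara, another, went from 12.9 ± 2.86 to 23.2 ± 5.37 CPM (0.85 ± 0.11, adjusted p = 2e-04). Rxra, a retinoid X receptor that pairs with both, went from 58.9 ± 1.40 to 92.7 ± 0.0261 CPM (0.65 ± 0.12, adjusted p = 0.0016). Rarb (1.99 and 1.52 CPM, adjusted p = 0.45) and Rxrb (48.2 and 44.3 CPM, adjusted p = 0.27) did not pass the test, and Rxrg had 0 to 2 counts in every library. Rarg also rose in segment 2 (0.74 ± 0.14, adjusted p = 0.017; 0.15 without the L2 library of batch 3017, 0.075 without that of batch 3097 and 0.14 in a fit of the 4 libraries compared alone).
The hydroxylases that degrade retinoic acid were scarce. Cyp26b1 was the only tested one of 3, at 2.99 ± 0.268 CPM in C1 and 3.30 ± 0.838 CPM in L1 (log2 fold change 0.15 ± 0.34, adjusted p = 0.74). Cyp26a1 had 0 to 9 counts a library and Cyp26c1 0 to 3.

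Among the other binding and uptake genes, Lrp2 and Rbp2 rose and Fabp5 fell in segment 1. Lrp2, the endocytic receptor megalin that takes up RBP4, rose from 7.33 ± 1.44 to 32.7 ± 1.47 CPM (log2 fold change 2.16 ± 0.19, adjusted p = 4.5e-05). Rbp2, a cellular retinol-binding protein of the intestine, rose from 0.322 ± 0.288 to 3.13 ± 0.822 CPM (3.22 ± 0.74, adjusted p = 0.0088). The value for Rbp2 was 4.82 and 2.49 when either C1 library was left out, and 2.79 without the L1 library of batch 3017, where its call was lost (adjusted p = 0.067). Fabp5, a fatty acid-binding protein that can also carry retinoic acid, fell from 22.2 ± 1.90 to 1.76 ± 0.712 CPM (-3.66 ± 0.37, adjusted p = 8.7e-05). Lcn5, the epididymal retinoic acid-binding lipocalin, had 70.0 ± 24.2 CPM in C1 and 467 ± 111 CPM in L1 but missed the threshold (2.74 ± 0.97, adjusted p = 0.062). Its levels spread widely in C3 (2530 ± 1860 CPM) and L2 (2730 ± 2380 CPM).

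Of 13 oxidoreductases tested, Rdh1, Adh1 and Adh5 rose and Rdh11 and Rdh12 fell in segment 1. Rdh12, which reduces retinaldehyde in photoreceptors, fell from 19.1 ± 1.69 to 4.75 ± 0.448 CPM (-2.01 ± 0.19, adjusted p = 5e-05). Adh1, an alcohol dehydrogenase that oxidises retinol, rose from 49.9 ± 7.91 to 107 ± 12.4 CPM (1.10 ± 0.11, adjusted p = 7.2e-05). Rdh1 rose from 0.305 ± 0.136 to 0.949 ± 0.320 CPM (1.57 ± 0.47, adjusted p = 0.02); the value was 2.31 without the C1 library of batch 3017, and the call was lost without the C1 or L1 library of batch 3097 (1.05 and 1.26). Rdh1 belongs to a cluster of close relatives among which reads may have been split.
In ester storage and release, Lpl, the lipoprotein lipase, rose from 2.43 ± 0.144 to 8.36 ± 1.47 CPM (1.77 ± 0.29, adjusted p = 0.00096). Lipe, the hormone-sensitive lipase, fell from 13.4 ± 0.146 to 7.71 ± 0.611 CPM (-0.80 ± 0.14, adjusted p = 0.0012), and Pnpla2, a triglyceride lipase, from 92.1 ± 7.60 to 61.3 ± 6.17 CPM (-0.59 ± 0.07, adjusted p = 2e-04). The lower Lipe of segment 2 (-0.71 ± 0.14, adjusted p = 0.016) missed the threshold without the batch term (adjusted p = 0.052), without the C2 library of batch 3017 (-0.57), without the L2 library of batch 3017 or 3097 (-0.72 and -0.68) and in the fit of the 4 libraries compared alone. Neither tested gene of carotenoid uptake and cleavage was called, and neither had an unadjusted p under 0.05 in segment 1.

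Of 8 tested genes known to respond to retinoic acid elsewhere, 2 rose and 1 fell in segment 1, a share under the background of 48.7%. Rarres1, a retinoic acid receptor responder, rose from 0.811 ± 0.581 to 30.4 ± 2.05 CPM (5.33 ± 0.61, adjusted p = 0.00078; 6.07 without the C1 library of batch 3097), and stood at 24.8 ± 18.3 CPM in C2 and 50.2 ± 5.14 CPM in C3. Rarres2, which encodes chemerin, rose from 7.38 ± 0.153 to 19.5 ± 5.89 CPM (1.37 ± 0.19, adjusted p = 0.00032). Hoxb1, a homeobox gene with known retinoic acid response elements, fell from 12.7 ± 3.91 to 0.506 ± 0.241 CPM (-4.67 ± 0.31, adjusted p = 1.2e-05). Hoxb1 also fell in segment 2, from 2.24 ± 1.35 to 0.289 ± 0.0306 CPM (-2.85 ± 0.34, adjusted p = 0.0021), with its call lost without the L2 library of batch 3017 (-2.48, adjusted p = 0.052) and in the fit of the 4 libraries alone (adjusted p = 0.082). The members of this list thus moved in both directions.

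**Figure D4:**
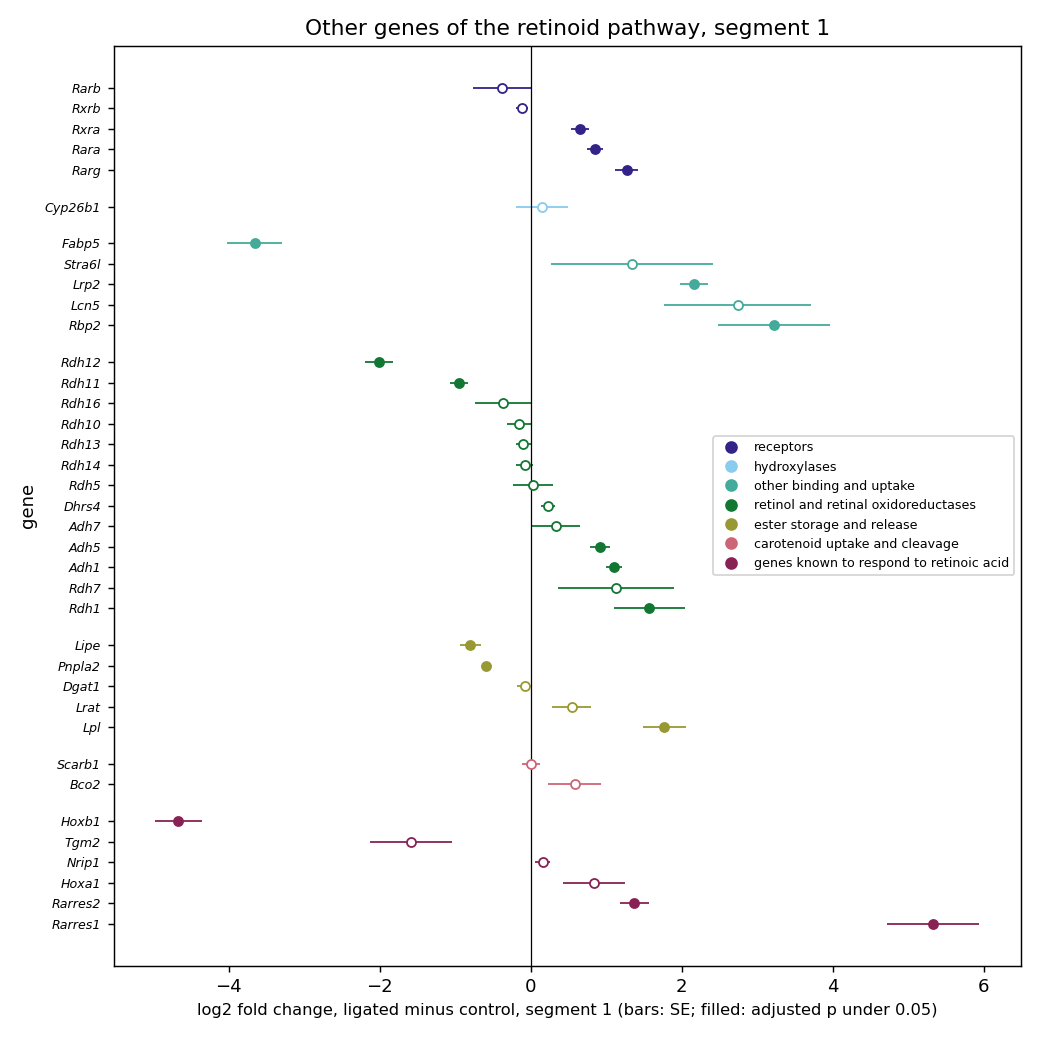
Log2 fold change of ligated against control tissue in segment 1 (x axis, bars are the SE of the fit) for the tested genes of the pathway other than the 9 (y axis), without 1 that is not reported here, coloured by role; filled points passed an adjusted p under 0.05. Rarres1 (5.33) and Rbp2 (3.22) lie farthest to the right and Hoxb1 (-4.67) and Fabp5 (-3.66) farthest to the left.

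The genes whose level over the 12 libraries was most like that of a retinoid gene were ranked by Pearson correlation of log2 CPM among 11209 expressed genes, as a description in which the libraries share groups, depth and batches. For Stra6 they were Iba57 (r = 0.971), Emp2 (r = 0.970) and Tmprss7 (r = 0.968). Emp2, an epithelial membrane protein, had 17.5 ± 0.786 CPM in C1, 14.1 ± 8.58 in C2, 53.3 ± 20.5 in C3 and 72.7 ± 20.7 in L1 (SD, n = 2). For Aldh1a1 they were Adam7 (r = 0.987), Slc30a9 (r = 0.975) and Acad9 (r = 0.973); Adam7, an epididymal membrane protein of the ADAM family, went from 20400 ± 3770 CPM in C1 to 9000 ± 427 CPM in L1. Aldh1a2 had Golga3 (r = 0.922), Fam173b (r = 0.913) and Supt20 (r = 0.910) nearest to it. Dhrs3 had Slc16a12 (r = 0.944), then Mtss1l (r = 0.864) and Clip4 (r = 0.846). An r over 0.9 was reached by 133 genes with Stra6, 44 with Aldh1a1, 4 with Aldh1a2 and 1 with Dhrs3. The first 3 for Stra6 and Aldh1a1 are thus taken from many. A high r does not mean a change of like size: Iba57 had a mean of 6.33 CPM in C1 and 9.45 CPM in L1. The other 5 genes stayed under a mean of 5 CPM in every group and were not ranked.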

How the data were processed

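Unnormalised counts of reads per gene were deposited by the authors, as a table for each sequencing batch with a column for each group, per the file headers. The libraries were directional and made from 500 ng of polyA-selected RNA, per the labels' protocols. The submitters' processing notes name Trim Galore 0.6.0, cutadapt, FastQC, STAR 2.7.0e and the build GRCm38 (mm10); the counting tool, strand setting and annotation were not given in the sources used here. Each of the 55536 identifiers matched GENCODE mouse release 21, which gave symbols, coordinates and exon lengths, and no exon of the 9 genes overlapped an exon of another gene. Libraries are named by group and batch, since the label replicate numbers could not be tied to batches.

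From these counts edgeR 4.0.16 (R 4.3.3) kept 19213 genes (filterByExpr, minimum count 10), scaled libraries by TMM and fitted group and batch to all 12 libraries by robust quasi-likelihood. The tests were two-sided, with 5 residual degrees of freedom (median prior 4.55) and a common biological coefficient of variation of 0.153. A call is a Benjamini-Hochberg adjusted p under 0.05 over all tested genes. Standard errors were derived from the F statistic of each log2 fold change. Batch was a block because the design text crosses it with group; deviations of libraries of a batch from their group means correlated at 0.08 to 0.55 between groups. The fitting code was tested on simulated data. CPM and RPKM were computed from the counts, and the precision of low levels is limited by depth (a floor of 3 counts is 0.07 to 0.103 CPM). Intervals and floors cover counting error only, since reads carried no molecular identifiers.

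All 9 genes are named whatever their result. Of the other pathway genes, every receptor and hydroxylase gene, Lcn5, and in each other list the 3 called genes with the largest change are named; 1 gene of the lists is counted but not reported here. The genes and lists were chosen with earlier results of these data known. Alternatives were RLE scaling, library totals alone, no or a stricter low-count filter (minimum count 50), DESeq2 1.42.0, no batch block, fits of the compared libraries alone and leaving out each library.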

Additional observations from a re-analysis of the deposited data

Results flagged for a closer look

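For 6 of the retinoid genes the response to ligation differed between segments by a test of the difference of log2 fold changes itself (edgeR's quasi-likelihood test, adjusted over all genes), beside 18.5% of all genes called between segments 1 and 2 and 30.7% between segments 1 and 3. Between segments 1 and 2 the difference was -3.84 for Rbp7, -1.50 for Aldh1a2 and 1.39 for Aldh1a3, and each lost its call when some single libraries were left out. Rbp7 passed the low-count filter mainly through C1 and L2, whose height makes this difference negative, so its call is a description. Rbp7 and Aldh1a2 fell in segment 1 and had positive log2 fold changes, not called, in segment 2 (1.01 and 0.15). Aldh1a3 rose in segment 1 and had 0.44, not called, in segment 2.

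Between segments 1 and 3 the difference was 3.96 for Stra6, 4.49 for Rbp4, -3.49 for Rbp7, -0.71 for Aldh1a1, -1.39 for Aldh1a2 and 2.03 for Aldh1a3. Those of Rbp4, Rbp7 and Aldh1a2 lost their calls without some single libraries: leaving out each library gave 3.59 to 6.73, -4.38 to -1.83 and -1.68 to -1.11. Aldh1a1 fell in both segments and by more in segment 1, whereas Stra6 rose in segment 1, did not pass the test in segment 3 and stood at 22.7 CPM in the controls of segment 3. With 2 libraries per group, single outlying libraries could not be tested for.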

How the results depend on the processing

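Over 70 gene results and 781 comparisons with another setting, 667 kept direction and side of the threshold, 97 lost their call, 5 gained one and 12 changed sign. None of those 12 was called: leaving out each library gave -0.22 to 0.64 for Aldh1a2 in segment 2 and, in segment 3, -0.36 to 0.56 for Rbp4, -0.94 to 1.61 for Rbp7, -0.68 to 0.71 for Crabp2, -0.18 to 0.29 for Aldh1a2 and -0.16 to 0.17 for Dhrs3; with library totals alone Crabp2 was 0.00 and Dhrs3 0.02 there. Leaving out each library in turn, the number of the 9 genes called ranged over 5 to 6 (6 with all libraries), 1 to 3 (2) and 0 to 1 (1) for ligation in segments 1, 2 and 3, 1 to 4 (3) for C1 against C2, 0 to 2 (1) for C2 against C3, 2 to 4 (5) for C1 against C3, 0 to 2 (2) for L1 against L2 and for L1 against L3, 0 (0) for L2 against L3, and 0 to 3 (3), 3 to 6 (6) and 0 to 2 (0) for the differences between segments 1 and 2, 1 and 3, and 2 and 3; that of other pathway genes ranged over 17 to 18, 0 to 15 and 0 for segments 1 to 3. Fits of the compared libraries alone called 0 of the 9 in segments 2 and 3 and in C2 against C3, 1 in C1 against C2 and in the difference between segments 1 and 2, and 0 pathway genes in segment 2. DESeq2 called 3 in C2 against C3, 2 in the difference between segments 2 and 3 and 8 pathway genes in segment 2, where library totals alone called 5. The stricter low-count filter, under which Rbp4, Rbp7 and Crabp1 are not tested, called 1 in C1 against C2, L1 against L2 and L1 against L3, and 2 in C1 against C3. Without the replicate block (batch), 0 of the 9 were called in C2 against C3 and 1 in L1 against L2; calls of Aldh1a1 in C1 against C3 and of Lipe in segment 2 were also lost, and the ligation counts of the 9 stayed at 6, 2 and 1. The cause of these changes was not tested beyond the smaller number of genes or libraries. The share of all genes called is mostly not given for these settings, so the counts are not read as results about the genes. Levels per kilobase of Stra6, Aldh1a1 and Dhrs3 rose to 19.1, 884 and 10.7 with the longest transcript.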
